A study of Mus musculus with 24 samples.

Results

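Inflammatory chemokines are small secreted proteins that draw leukocytes along a gradient to injured tissue, and myeloid cells both make them and respond to them. CCR2 ligands call monocytes out of the bone marrow, ligands of CCR1 recruit monocytes and macrophages, and ELR-positive CXC chemokines bind CXCR2 on neutrophils. After myocardial infarction (MI) the bone marrow and the spleen both release monocytes and neutrophils that reach the heart. The 10 genes described here (Ccl2, Ccl3, Ccl4, Ccl6, Ccl7, Ccl9, Ccl12, Cxcl1, Cxcl2 and Cxcl16) were taken by name as a family of inflammatory chemokines. They were 10 of 32451 genes or transcripts on the array, of which 20659 carried a gene symbol.

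CD11b+ cells were collected from the spleen and the bone marrow of wild-type (WT) mice, of mice without histidine decarboxylase (HDC-KO) and of mice without STAT6 (STAT6-KO), either as controls or 1, 2 or 4 weeks after MI. Per the study's methods the mice were male, 10 weeks old and on the Balb/C background. Each condition was a single one-colour array hybridised with RNA pooled from 5 mice, so no condition had replicates, and the tests below took the spread from how far genotypes, time points or tissues departed from a common pattern. Of 24 arrays, 22 held complete data (11 per tissue). The HDC-KO spleen control held 229 spots and the STAT6-KO bone marrow MI 1 week array held 84, with 0 probes for the 10 chemokine genes on either, and both were left out. The arrays were scanned in 6 sets of 4, each set holding 1 genotype in 1 tissue with its time points in order of position. Genotype and tissue therefore cannot be told apart from scan, nor time from position.

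Levels are given as log2 of the processed signal relative to the 75th percentile of the same array. That percentile ran from 928 to 2461 intensity units in spleen (median 1638) and from 963 to 1780 in bone marrow (median 1385). The share of spots well above background was 70.4% to 79.0% in spleen and 71.3% to 79.8% in bone marrow. Hdc, the deleted gene of the HDC-KO mice, lay between 4.32 and 4.83 in WT spleen against 1.67 to 1.93 in HDC-KO spleen, and between 4.75 and 5.51 in WT bone marrow against 2.32 to 2.78 in HDC-KO bone marrow. No HDC-KO array reached the WT range. Stat6 had 3 probes, and whether any lies within the deleted part of the gene is not given in the sources used here. The brightest Stat6 probe lay at 1.94 to 2.44 in STAT6-KO spleen against 2.38 to 2.90 in WT spleen. The next Stat6 probe lay at -0.29, -0.98 and -1.11 on the STAT6-KO spleen arrays of the control, 1 and 2 weeks, and at 0.73 on the 4 week spleen array labelled STAT6-KO, which was within the WT spleen range of 0.05 to 1.29. On the brightest probe that array was at 2.12, among the other STAT6-KO arrays and below the WT range. The remaining Stat6 probe placed that same array at 0.20, against -1.72 to -0.87 on the other STAT6-KO spleen arrays. The WT spleen range of this probe was -0.43 to 1.08, which includes that value. Counts of called members in spleen and in the interactions were therefore also taken without this array. Correlations include it. Xist, which female cells transcribe, had 2 probes. By one it was well above background on 0 of 8 WT arrays, on all 7 HDC-KO arrays (-1.81 to -0.74) and on both STAT6-KO control arrays (-2.06 in spleen and -3.18 in bone marrow). By the other it lay between -3.31 and -2.05 in HDC-KO and between -7.31 and -5.42 in WT. Y-linked Eif2s3y and Ddx3y were well above background on all 22 arrays, at -0.16 to 1.42 and -2.48 to -1.49 in HDC-KO spleen against 2.04 to 2.28 and -1.14 to -0.30 in WT spleen, so the HDC-KO arrays held transcripts of Xist and of the Y chromosome. Eif2s3y was lower in HDC-KO spleen (-1.46), a call lost without the 1, 2 or 4 week arrays (adjusted p from 0.0971 to 0.171), and Uty (-1.26) and Ddx3y were lower in HDC-KO bone marrow, calls lost without any 1 time point (0.0601 to 0.366). The part of this in the chemokine results was not tested.

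The CD11b+ label was checked against 6 myeloid marker genes, which were well above background on all 22 arrays. Itgam, which encodes CD11b, had a lowest, median and highest level of 3.52, 4.23 and 4.83 in spleen and of 5.10, 5.60 and 5.85 in bone marrow, and its ranges in the tissues did not overlap. The summed linear level of the 6 markers was 73.0 to 119 times the array's 75th percentile in spleen and 110.0 to 156 times in bone marrow, each sum taken over the same 6 probes.

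Of the 10 chemokine genes, 7 were well above background on all 22 arrays. Ccl7 was well above background on 5 of 11 spleen and 10 of 11 bone marrow arrays, Ccl12 on 7 and 11, and Cxcl1 on 11 and 10. Ccl4 and Ccl6 moved least along the time course in WT spleen, where Ccl4 stayed between 4.55 and 4.84 and Ccl6 between 4.28 and 4.72. Ccl2 in the same cells ran from -0.32 to 2.60 and Ccl12 from -6.99 to -3.38. Ccl2 was measured by up to 10 spots per array, whose standard deviation within an array had a median of 0.08 and a highest value of 0.26 (log2). This is technical spread between spots and holds no variation between pools of mice. Every other member had 1 spot per array.

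**Figure D1:**
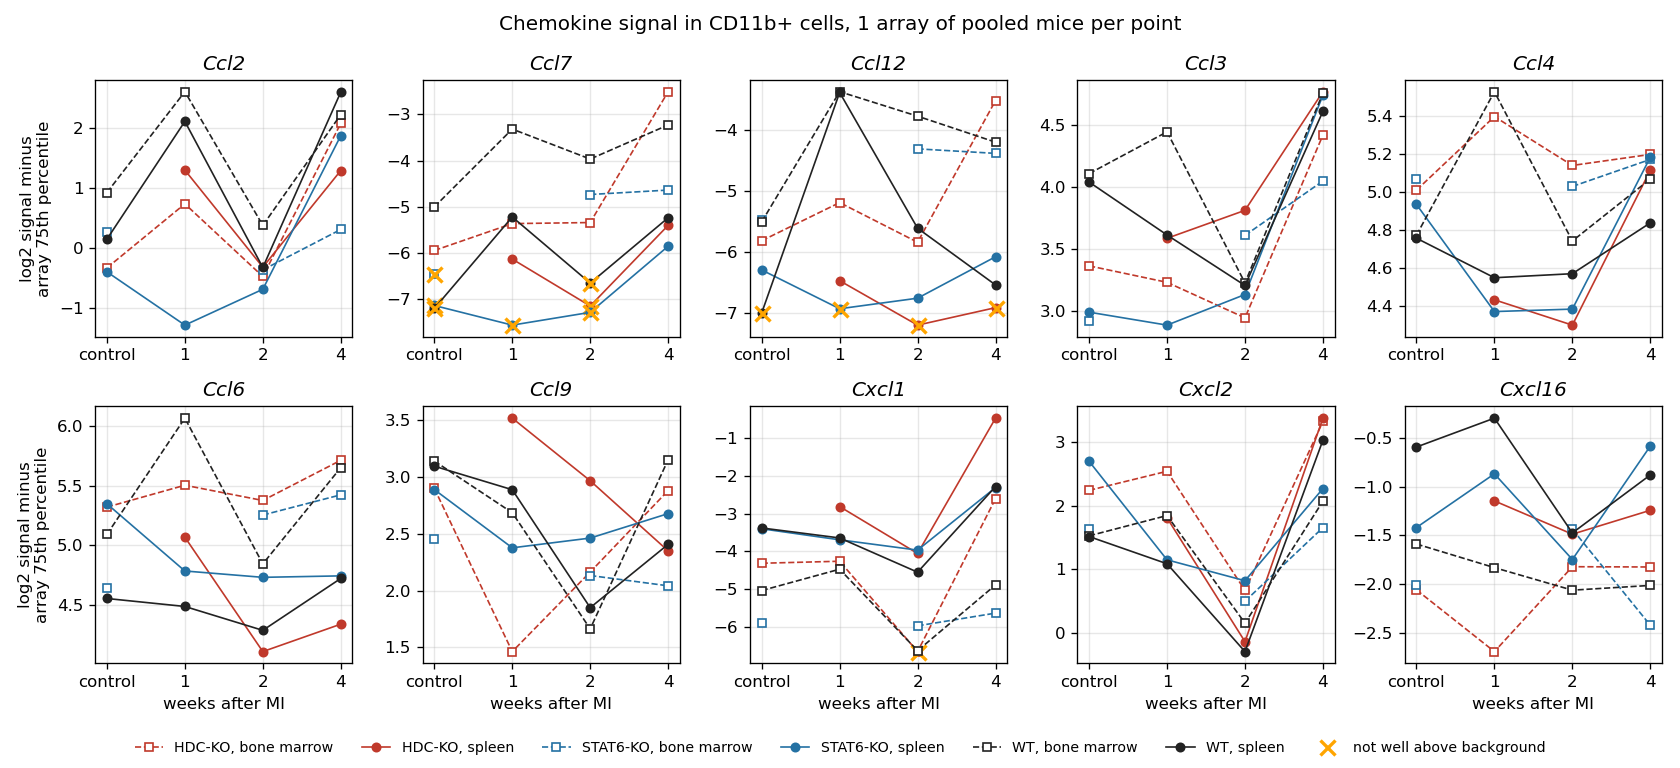
Level of each of the 10 chemokine genes (log2 signal minus the array's 75th percentile) in controls and 1, 2 and 4 weeks after MI, 1 array of pooled mice per point, with filled circles for spleen, open squares for bone marrow, a colour per genotype, and crosses on values not well above background. Cxcl1 and Cxcl2 had their lowest level at 2 weeks in 6 of 6 series, and Ccl3 its highest at 4 weeks in 6 of 6.

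Spleen and bone marrow were compared first, in 10 pairs of arrays that shared genotype and time point. The limma test called 6 of the 10 chemokine genes at a Benjamini-Hochberg adjusted p under 0.05, against 54.5% of the 27626 genes tested. Cxcl1 and Cxcl16 were higher in spleen, and Ccl4, Ccl6, Ccl7 and Ccl12 were lower in spleen. The median difference was -0.04 over the members and -0.17 over all genes. Quantile normalization moved the median of all genes by 0.12 and left the direction of all 6 called members as it was, as did scaling to the median or to detected probes. In cell populations measured in bulk, fewer cells of a type and less RNA per cell cannot be told apart.

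Among the CCR2 ligands, Ccl7 had a lowest, median and highest level of -7.56, -6.65 and -5.22 in spleen and of -6.46, -4.73 and -2.51 in bone marrow. The ranges overlapped. In the 5 pairs with both arrays well above background the spleen array was the dimmer one, by -2.89 to -0.77. On the other 5 spleen arrays, and on 1 of their bone marrow counterparts, Ccl7 was not well above background, so no mean size is given from the signals as they stand (adjusted p = 2.79e-05). With low signals raised to each array's dimmest detected probe the Ccl7 difference was -1.73 (adjusted p = 6.67e-05). Ccl12, a mouse chemokine close to Ccl2 and Ccl7 in sequence, had levels of -7.19, -6.54 and -3.38 in spleen and of -5.84, -4.38 and -3.37 in bone marrow. It was lower in spleen in the 7 pairs with both arrays well above background, by -2.45 to -0.01, with an adjusted p of 0.000243, and its difference was -1.53 with low signals raised in the same way. The pair that came closest was WT at 1 week, where Ccl12 had its highest level in both tissues. Both probes sat near background. With normexp background correction the difference was -0.76 for Ccl7 (adjusted p = 0.00455) and -0.64 for Ccl12 (adjusted p = 0.00624). Ccl2, the most studied CCR2 ligand, did not separate the tissues. It had levels of -1.29, 0.15 and 2.60 in spleen and of -0.47, 0.38 and 2.61 in bone marrow, with a difference of -0.11 ± 0.23 (SE, adjusted p = 0.710).

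Ccl3 and Ccl4 encode macrophage inflammatory proteins that attract monocytes and lymphocytes, and Ccl3 binds CCR1. Ccl4 levels were 4.30, 4.57 and 5.18 (lowest, median, highest) in spleen and 4.74, 5.07 and 5.53 in bone marrow. Spleen was lower in 9 of 10 pairs, the 4 week spleen array labelled STAT6-KO being the exception at 0.01, and the difference was -0.41 ± 0.13 (adjusted p = 0.0229). That call was lost under more alternatives than those of Ccl6, Ccl7, Cxcl1 and Cxcl16. Its adjusted p over all alternatives ran from 0.0128 to 0.436. It missed the threshold with median scaling (0.0632), with scaling to detected probes (0.0628), without the WT 1 week pair (0.0524), without the HDC-KO 1 week or 2 week pair (0.0535 each), without all HDC-KO arrays (0.116), and in WT, HDC-KO or STAT6-KO pairs alone (0.268, 0.126 and 0.436). Ccl3 had nearly the same range in both tissues, 2.88 to 4.77 in spleen and 2.92 to 4.76 in bone marrow, with a difference of 0.08 ± 0.16 (adjusted p = 0.704).

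Ccl6 and Ccl9 encode CCR1 ligands that rodent myeloid cells make without an inflammatory stimulus. Ccl6 levels were 4.11, 4.72 and 5.35 in spleen and 4.64, 5.38 and 6.07 in bone marrow. Bone marrow was brighter in 9 of 10 pairs, and the STAT6-KO control pair ran the other way at 0.71. The Ccl6 difference was -0.72 ± 0.19, or 1.65-fold (adjusted p = 0.00765). Without the HDC-KO arrays it was -0.59 (adjusted p = 0.0639), and in the STAT6-KO pairs alone -0.17 (adjusted p = 0.734), the highest of all alternatives, which started at 0.000567. Ccl9 was not called, at 1.85, 2.68 and 3.52 in spleen against 1.46, 2.45 and 3.15 in bone marrow (difference 0.33 ± 0.23, adjusted p = 0.238).

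Cxcl1 and Cxcl2 encode neutrophil attractants that bind CXCR2. Cxcl1 had levels of -4.55, -3.40 and -0.47 in spleen and of -6.65, -5.04 and -2.60 in bone marrow, and spleen was brighter in 10 of 10 pairs, by 0.83 to 3.33. Its difference of 2.12 ± 0.21, or 4.35-fold, had an adjusted p of 5.75e-06, with 9 of the 10 paired bone marrow arrays well above background, and it was 1.05 with normexp background correction (adjusted p = 0.000759). Cxcl2, its neighbour in function, had overlapping levels of -0.30, 1.52 and 3.38 in spleen and 0.15, 1.66 and 3.33 in bone marrow (difference 0.03 ± 0.21, adjusted p = 0.931). Cxcl16 encodes the membrane-bound ligand of CXCR6. Its levels were -1.75, -1.15 and -0.30 in spleen and -2.69, -2.01 and -1.44 in bone marrow. Spleen was brighter in 9 of 10 pairs, all but STAT6-KO at 2 weeks (-0.31), and the Cxcl16 difference was 0.88 ± 0.20, or 1.84-fold (adjusted p = 0.00234). In the HDC-KO pairs alone its adjusted p was 0.0946 and in the STAT6-KO pairs alone 0.269, the upper end of a range that began at 0.000475.

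A two-sided exact sign-flip permutation test over the 10 pairs, which cannot give a p below 0.00195, gave that value for Cxcl1, Ccl7 and Ccl12, of which the latter 2 gave it with low signals raised as well. Its exact p was 0.00391 for Ccl4 and Cxcl16 and 0.0137 for Ccl6. The 4 members without a limma call had exact p-values from 0.209 (Ccl9) to 0.900. This permutation test takes the pairs as independent, although pairs of the same genotype share their scans. With the 4 arrays of a scan as a random block, limma called 6 members as well, and so it did without the pair that holds the 4 week spleen array labelled STAT6-KO.

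**Figure D2:**
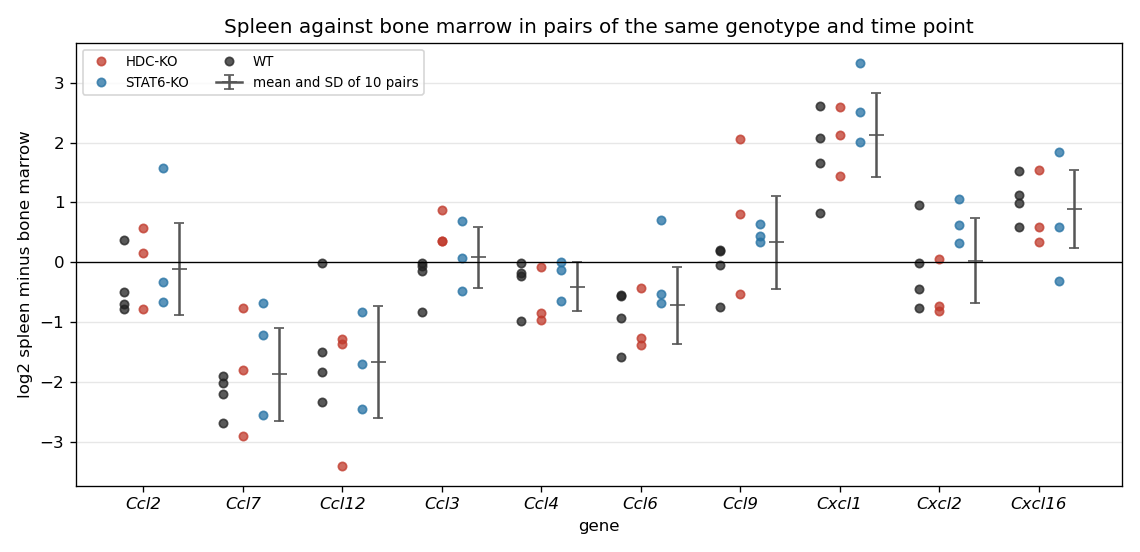
Difference between spleen and bone marrow (log2, spleen minus bone marrow) for each chemokine gene in 10 pairs of the same genotype and time point, a colour per genotype, with the mean and SD of the 10 pairs as bars. All 10 pairs lay above 0 for Cxcl1. For Ccl7 and Ccl12, 5 and 3 of the 10 points rest on a signal not well above background.

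Other genes of the same system also differed between the tissues, beside the 54.5% called overall. Of 20 further chemokine genes tested, 8 were higher in spleen and 8 lower, led by Cxcl12 (-5.58), Ccl5 (3.78) and Cxcl14 (-3.45). Of the 9 receptors of the members, 5 were higher in spleen, including Cxcr6 (3.60), the receptor of Cxcl16, and Ccr3 (2.29), and 1 was lower. NF-κB response genes, a group to which Cxcl1 and Ccl2 also belong by general knowledge, were higher in spleen for 8 of 18 (Icam1 2.08, Il1a 1.85) and lower for 1 (Tnf -1.30). Among immediate early genes 3 of 8 were higher and 1 lower, and among interferon-induced genes 1 of 7 was higher (Isg15 0.91, adjusted p = 0.152 with scan as a random block).

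Marker genes of several cell types differed between the spleen and bone marrow arrays as well. Lower in spleen were 4 of 6 CD11b+ myeloid markers (1 was higher), 8 of 8 neutrophil granule genes (Elane -3.62), 5 of 7 mature neutrophil genes (Mmp9 -2.57), 5 of 5 basophil and mast cell genes (Prss34 -3.18), 5 of 5 platelet genes (Gp1ba -2.89) and 3 of 5 stromal genes (Col1a1 -3.30). Higher in spleen were 10 of 11 tissue macrophage genes (Spic 3.72), 3 of 5 monocyte genes (Cx3cr1 1.41), 5 of 6 dendritic cell genes (Ccr7 3.71), 7 of 7 B cell genes (Cr2 4.33), 4 of 6 T cell genes (Cd3g 4.29, with Cd3d lower at -1.50), 4 of 6 NK cell genes (Gzma 3.45), 2 of 4 plasma cell genes (Jchain 2.50) and 2 of 6 erythroid genes (Alas2 1.17, adjusted p = 0.0621 with scan as a random block). Their part in the differences of Cxcl1, Cxcl16, Ccl4, Ccl6, Ccl7 and Ccl12 was not tested.

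Each knockout was then compared with WT within a tissue, to ask what the loss of STAT6 or of histamine synthesis did to chemokine transcripts. Both knockouts share the WT arrays, so their values are given side by side. In spleen, limma called 0 of 10 members in STAT6-KO against WT (1.96% of all genes) and 0 of 10 in HDC-KO against WT (2.81%). In bone marrow it called 0 of 10 in STAT6-KO (4.61%) and 0 of 10 in HDC-KO (0.443%). The methods' t-test also called 0 members in each of the 4 comparisons, both at its fold and p threshold and after Benjamini-Hochberg adjustment. At an unadjusted p under 0.05, limma had 2, 1, 2 and 3 members in these comparisons, in that order, beside 6051 and 5973 of 26380 genes in spleen and 6076 and 5749 of 27065 in bone marrow. The member values below are therefore descriptions. Without the 4 week spleen array labelled STAT6-KO the spleen counts of called members were 0 as well. With median scaling the median of all genes moved by -0.17 in the HDC-KO spleen comparison and by -0.11 in the STAT6-KO bone marrow comparison.

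Ccl2 had the lowest unadjusted p-values together with Ccl7 in STAT6-KO cells. In spleen, Ccl2 was at 0.15, 2.11, -0.32 and 2.60 in WT (control, 1, 2 and 4 weeks), at -0.40, -1.29 and -0.69 in STAT6-KO control, 1 and 2 weeks, at 1.88 on the 4 week spleen array labelled STAT6-KO, and at 1.30, -0.32 and 1.29 in HDC-KO (1, 2 and 4 weeks). The STAT6-KO array lay below its WT counterpart in the control and at 1 and 2 weeks, most at 1 week. So did the 4 week spleen array labelled STAT6-KO, though the ranges of the genotypes overlapped. The fitted Ccl2 difference was -1.26 ± 0.53 for STAT6-KO (adjusted p = 0.205) and -0.59 for HDC-KO. In bone marrow, Ccl2 was at 0.93, 2.61, 0.38 and 2.23 in WT, at 0.27, -0.36 and 0.31 in STAT6-KO (control, 2 and 4 weeks), and at -0.33, 0.74, -0.47 and 2.08 in HDC-KO. Every knockout array lay below the WT array of its time point, and the differences were -1.25 ± 0.43 for STAT6-KO (adjusted p = 0.152) and -1.03 for HDC-KO (adjusted p = 0.204).

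Ccl7 in bone marrow was at -5.00, -3.32, -3.97 and -3.23 in WT and at -6.46, -4.73 and -4.64 in STAT6-KO (control, 2 and 4 weeks), the control not well above background. All 3 STAT6-KO arrays lay below the WT array of the same time point (adjusted p = 0.173). In spleen Ccl7 was not well above background on 5 of the 8 WT and STAT6-KO arrays, among them both arrays of the control and of the 2 week pair, so no size is given for its difference (adjusted p = 0.176). Ccl12, well above background on 3 of 4 WT and 1 of 3 HDC-KO spleen arrays, had an adjusted p of 0.270 between these genotypes. Over all members the median difference in STAT6-KO bone marrow was -0.40 with 9 of 10 below 0, beside 0.07 over all genes. In STAT6-KO spleen it was -0.15 beside -0.06, in HDC-KO spleen 0.03 beside 0.06, and in HDC-KO bone marrow -0.27 beside -0.01.

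Further members with a low unadjusted p in HDC-KO were Cxcl1, Cxcl2 and Ccl3. Cxcl1 in spleen was at -2.81, -4.05 and -0.47 in HDC-KO and at -3.64, -4.55 and -2.28 in WT (1, 2 and 4 weeks). The HDC-KO array was the brighter in 3 of 3 pairs, by a fitted 1.02 ± 0.31 (adjusted p = 0.111). STAT6-KO spleen lay at -3.40, -3.69 and -3.97 (control, 1 and 2 weeks), and the 4 week spleen array labelled STAT6-KO at -2.31. Cxcl2 in bone marrow was at 2.24, 2.54, 0.67 and 3.33 in HDC-KO and at 1.53, 1.85, 0.15 and 2.07 in WT (control, 1, 2 and 4 weeks), above WT in 4 of 4 pairs (0.80, adjusted p = 0.148). Ccl3 in bone marrow went the other way, at 3.36, 3.23, 2.94 and 4.42 in HDC-KO and at 4.11, 4.44, 3.22 and 4.76 in WT (-0.65, adjusted p = 0.234). Among cell type markers, 2 of 5 platelet genes (Gp1ba 1.09, Gp9 1.08) and 1 of 6 T cell genes (Cd8a 0.74) were higher in HDC-KO bone marrow, each a call lost without any 1 time point (adjusted p from 0.0733 to 0.367). Their part in the Cxcl2 and Ccl3 values was not tested.

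Whether a genotype difference changed with the tissue was tested as an interaction. It was called for 0 of 10 members for STAT6-KO (1.23% of all genes) and for 0 of 10 for HDC-KO (1.78%), with 0 and 1 members at an unadjusted p under 0.05 in limma, beside 5253 and 5843 of 27626 genes. The 1 was Ccl3 (0.84 ± 0.34, adjusted p = 0.221). Of the 9 receptors, Cxcr6, the receptor of Cxcl16, was called in both (1.22, adjusted p = 0.0475 for STAT6-KO and 1.33, adjusted p = 0.0297 for HDC-KO). Both calls were lost when any 1 time point was left out (0.0934 to 0.281 and 0.0621 to 0.126), and that for STAT6-KO without the 4 week spleen array labelled STAT6-KO (0.0649). Without that array limma called 0 members in both interactions as well. Among cell type markers, 1 of 8 neutrophil granule genes was called for STAT6-KO (Ngp -1.61) and 1 of 6 T cell genes for HDC-KO (Cd3g 2.08), each lost without any 1 time point (0.0631 to 0.254 and 0.0544 to 0.155). Their part in the values of Cxcl16, Ccl3 and Cxcr6 was not tested. The median interaction was 0.56 over the members for STAT6-KO, beside -0.12 over all genes, and 0.12 beside 0.07 for HDC-KO. Median scaling moved the all-gene median by 0.20 and -0.26 in these comparisons, and quantile normalization moved it by 0.14 in the STAT6-KO one.

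Among the chemokine genes outside the 10, Ccl24, which encodes an eosinophil attractant, was lower without STAT6, by a fitted -3.52 in spleen (adjusted p = 0.00172) and -2.75 in bone marrow (adjusted p = 0.00499). With normexp background correction the spleen value had an adjusted p of 0.117, the highest over its alternatives (from 0.000133). The bone marrow call was lost without the control arrays (adjusted p = 0.0795, the highest over its alternatives, from 0.000135) and without the 2 week arrays (0.0592). Cxcl9 was called in HDC-KO spleen (-2.01, adjusted p = 0.0454) and STAT6-KO bone marrow (-2.60, adjusted p = 0.0297). Ccl19, a CCR7 ligand, was higher in STAT6-KO bone marrow (1.37, adjusted p = 0.0376), a call lost without the control (0.203), 2 week (0.216) or 4 week arrays (0.118). The Cxcl9 calls were lost without the arrays of 1, 2 or 4 weeks (adjusted p from 0.141 to 0.195 in spleen and from 0.0510 to 0.218 in bone marrow), and in bone marrow also without the controls (0.0660). In STAT6-KO bone marrow, where Ccl2 and Ccl7 lay below WT and 4.61% of all genes were called (1078 higher and 170 lower of 27065), 3 of 8 immediate early genes were lower (Fosb -1.41, Junb -1.15, Ier2 -1.09). Those calls were lost without the controls, the 2 week or the 4 week arrays (adjusted p from 0.0901 to 0.218), and that of Fosb also without the 1 week array (0.0753). Other list genes called there ran both ways: Icam1 (-1.19) and the B cell gene Pax5 (-1.04) were lower, and Nfkb1 (0.62), the T cell genes Cd4 (0.77) and Cd8a (0.61), the NK cell gene Prf1 (0.54) and the plasma cell gene Jchain (2.93) were higher. Each of these 7 calls was lost without the controls, the 2 week or the 4 week arrays (adjusted p from 0.0688 to 0.307), and those of Pax5, Nfkb1, Cd8a, Prf1 and Jchain also without the 1 week array (0.0515 to 0.0768). The part of those genes in the Ccl2 and Ccl7 values was not tested.

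The time course after MI was compared with the controls of the same tissue across genotypes, and the 3 time points share those controls. In spleen limma called 0 of 10 members at 1 week (7.91% of all genes), 0 of 10 at 2 weeks (2.25%) and 0 of 10 at 4 weeks (0%). In bone marrow it called 0 of 10 at 1 week (0.148%), 0 of 10 at 2 weeks (0%) and 0 of 10 at 4 weeks (0%). The members at an unadjusted p under 0.05 numbered 0, 2 and 4 in spleen and 2, 2 and 5 in bone marrow. At the same unadjusted threshold were 7216, 6261 and 2292 of 26380 genes in spleen and 5336, 2024 and 5184 of 27065 in bone marrow. The median difference of the members was -0.18, -0.44 and 0.57 in spleen at 1, 2 and 4 weeks, beside -0.16, -0.13 and 0.08 over all genes, and 0.50, -0.09 and 0.65 in bone marrow, beside 0.06, 0.01 and 0.04. In spleen, quantile normalization moved the all-gene median by 0.18 at 1 week and 0.15 at 2 weeks, and median scaling by 0.30 and 0.26.

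Cxcl2 in spleen at 2 weeks came nearest to the threshold. It was at 1.52 in the WT control and -0.30 at 2 weeks, and at 2.70 and 0.82 in STAT6-KO, with HDC-KO at -0.14 at 2 weeks. All 3 arrays at 2 weeks lay below both controls. The Cxcl2 difference of -2.09 ± 0.48 had an adjusted p of 0.0615, and without the 4 week spleen array labelled STAT6-KO it was -2.01 and passed (adjusted p = 0.0459). Called beside it at 2 weeks in spleen were 2 of 8 immediate early genes (Junb -0.97, Dusp1 -0.91), 1 of 20 other chemokine genes (Cxcl13 -1.70) and 1 of 6 dendritic cell genes (Zbtb46 -1.82), each lost without any 1 genotype (adjusted p from 0.0595 to 0.369), and Dusp1 also without that array (0.0513). Their part in the Cxcl2 values was not tested. At 4 weeks in bone marrow the members with an unadjusted p under 0.05 were Ccl2 (1.25), Ccl3 (0.95), Ccl6 (0.58), Ccl12 (1.56) and Ccl7, whose adjusted p of 0.0964 was the lowest of these 5 and for which no size is given, as 1 of the 3 controls was not well above background. At 4 weeks in spleen they were Ccl2 (2.04), Ccl3 (1.07), Cxcl1 (1.38) and Ccl7, with adjusted p-values from 0.428 to 0.508. Ccl7 was not well above background on either spleen control, so only a bound can be given, at least 2.93-fold, with each control taken at its dimmest detected probe or at Ccl7's own signal, whichever was higher. At 1 week in spleen, leaving out the STAT6-KO arrays gave 2 called members, Ccl2 (1.91, adjusted p = 0.0491) and Ccl7 (adjusted p = 0.0262). The WT array was then the only control, taken to vary like the other conditions, and Ccl7 was not well above background on it. Their 1 week levels were -1.29 and -7.56 in STAT6-KO, the latter not well above background, against 2.11 and -5.22 in WT. Cell type markers also differed at 1 week in spleen, where 430 genes were higher and 1657 lower: 4 of 6 T cell genes were lower (Cd3g -2.07, Cd3e -1.98, Lck -1.39, Cd8a -1.38), as was 1 of 6 dendritic cell genes (Zbtb46 -2.22), and 2 of 8 neutrophil granule genes were higher (Elane 1.88, Prtn3 1.66). The median level of the 6 T cell genes was 1.40 and 1.19 in the WT and STAT6-KO controls and 0.13, 0.35 and 0.39 at 1 week in WT, HDC-KO and STAT6-KO. All 7 marker calls were lost without the WT arrays (adjusted p from 0.305 to 0.387), all but Cd3e and Zbtb46 without HDC-KO (0.0825 to 0.113), and Lck and Cd8a without STAT6-KO (0.0575 and 0.0535). The part of the cells they mark in the Ccl2 and Ccl7 values was not tested.

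Because several members looked dim at 2 weeks and bright at 4 weeks, these time points were also compared directly, a contrast chosen after the values were seen. The arrays that prompted this contrast also gave its p-values, so its calls describe the pattern and are no independent test of it. No other contrast between MI time points was run. In spleen limma called 6 of 10 members higher at 4 weeks, against 19.7% of 26380 genes called in either direction (4337 higher and 850 lower). The median difference was 1.00 over the members and 0.17 over all genes. With median scaling the all-gene median moved by -0.34 and the split became 2108 higher and 3437 lower, and with quantile normalization it moved by -0.23 and the split became 2045 and 1755. Under these scalings the 6 called members kept their direction, while Ccl6 (0.23), Ccl9 (0.05) and Ccl12, which were not called, changed sign.

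Cxcl2 in spleen was at -0.30, -0.14 and 0.82 at 2 weeks in WT, HDC-KO and STAT6-KO. At 4 weeks it was at 3.03, 3.38 and 2.27, the last, here and below, on the array labelled STAT6-KO. The levels at the time points did not overlap, and the difference was 2.76 ± 0.41, or 6.80-fold (adjusted p = 0.00615). Cxcl1 was at -4.55, -4.05 and -3.97 at 2 weeks and at -2.28, -0.47 and -2.31 at 4 weeks, again without overlap, for a difference of 2.50 ± 0.32, or 5.67-fold (adjusted p = 0.00463). Ccl2 went from -0.32, -0.32 and -0.69 to 2.60, 1.29 and 1.88 (2.37 ± 0.61, adjusted p = 0.0317). For Cxcl1, Cxcl2 and Ccl2 every 4 week array was above every 2 week array. The share of all genes without overlap between these time points was not counted, so the separation is no trait particular to the members. In limma, 9630 of 26380 genes had an unadjusted p under 0.05 in this contrast. Ccl3 was at 3.20, 3.81 and 3.13 at 2 weeks and at 4.61, 4.77 and 4.74 at 4 weeks (1.32 ± 0.25, adjusted p = 0.0121). Ccl4 was at 4.57, 4.30 and 4.38 at 2 weeks and at 4.84, 5.12 and 5.18 at 4 weeks (0.63 ± 0.16, adjusted p = 0.0330). Neither Ccl3 nor Ccl4 overlapped between the time points. Ccl7 was not well above background on any 2 week array (-6.65, -7.15 and -7.28) and was so on all 3 at 4 weeks (-5.24, -5.40 and -5.85), which gave an at least 2.72-fold higher signal at 4 weeks, with each 2 week array taken at its dimmest detected probe or at Ccl7's own signal, whichever was higher (adjusted p = 0.0312).

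These calls rested on few arrays. No member was called without the WT arrays (0 of 10) or with normexp background correction (0 of 10), 1 was called without HDC-KO (Cxcl1, adjusted p = 0.0358), 5 without STAT6-KO (Ccl4 was lost), and 3 without the 4 week spleen array labelled STAT6-KO (Ccl3, Cxcl1 and Cxcl2). Ccl4 and Ccl7 were also lost with median scaling (adjusted p = 0.252 and 0.0705) and with quantile normalization (0.0988 and 0.119). Over all alternatives the adjusted p ran from 0.00263 to 0.269 for Cxcl1, from 0.00352 to 0.157 for Cxcl2, from 0.0258 to 0.451 for Ccl4 and from 0.0156 to 0.983 for Ccl7. The 75th percentile of intensity also differed between these arrays, at 1638, 2223 and 1762 at 2 weeks and 1605, 1177 and 928 at 4 weeks in WT, HDC-KO and STAT6-KO. Its part in the result was not tested.

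In bone marrow the same contrast called 0 of 10 members in limma (0.00369% of all genes, 1 gene). At an unadjusted p under 0.05 were 4 members, Ccl2, Ccl3, Cxcl1 and Cxcl2, and 3567 of 27065 genes. Cxcl2 was at 0.15, 0.67 and 0.50 at 2 weeks and at 2.07, 3.33 and 1.66 at 4 weeks (1.91, adjusted p = 0.0854). The levels did not overlap, as in spleen, and the share of all genes without overlap was not counted here either. The median difference was 0.93 over the members and 0.04 over all genes. Across both tissues Ccl2, Ccl3, Ccl4, Ccl6, Ccl7, Cxcl1 and Cxcl2 were brighter at 4 than at 2 weeks in 6 of 6 series of genotype and tissue, Ccl9 and Cxcl16 in 4, and Ccl12 in 3. The share of all genes brighter in 6 of 6 was not counted. Some steps were small, at 0.01 for Ccl6 in STAT6-KO spleen and 0.06 for Ccl4 in HDC-KO bone marrow. For Ccl7 the step was 0.10 in STAT6-KO bone marrow, and its 2 week spleen values were not well above background. The fitted difference between 4 and 2 weeks changed sign with another scaling for Ccl4 in bone marrow (0.18) and for Ccl6 in spleen.

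Other lists were set beside the 19.7% of all genes called between 2 and 4 weeks in spleen (4337 higher and 850 lower of 26380). All 8 immediate early genes were higher at 4 weeks (Fosb 1.80, Junb 1.66, Dusp1 1.36, Atf3 1.32), and the median level of the 8 was 3.66, 3.74 and 3.83 at 2 weeks and 5.08, 5.06 and 5.05 at 4 weeks in WT, HDC-KO and STAT6-KO. The Atf3 call was lost without the HDC-KO arrays (adjusted p = 0.161) and without the 4 week spleen array labelled STAT6-KO (0.0838). Of 18 NF-κB response genes, 6 were higher (Tnfaip3 1.42, Rel 1.13, Nfkbia 0.98, Zfp36 0.96). Rel and Nfkbia were not called without HDC-KO (0.0987 and 0.0988), nor Nfkbia and Zfp36 without STAT6-KO (0.0622 and 0.0565). Of 20 other chemokine genes 2 were higher, Cxcl3 (2.92), a CXCR2 ligand like Cxcl1 and Cxcl2, and Cxcl13 (0.90). Cxcl3 was not called without HDC-KO (0.137), and Cxcl13 was not called without HDC-KO (0.213), without STAT6-KO (0.144) or without the 4 week spleen array labelled STAT6-KO (0.111). Among cell type markers, 1 of 6 dendritic cell genes (Zbtb46 2.17), 1 of 5 monocyte genes, also 1 of 6 CD11b+ markers (Csf1r 0.67), and 1 of 5 stromal genes (Col1a1 0.68) were higher at 4 weeks, and 1 of 6 T cell genes was lower (Cd8a -1.19). Csf1r and Col1a1 were not called without HDC-KO (0.250 and 0.252), without STAT6-KO (0.210 and 0.140) or without the 4 week spleen array labelled STAT6-KO (0.152 and 0.129), nor was Cd8a without HDC-KO (0.0579) or that array (0.0605). Without the WT arrays limma called 0 genes in all, with 6917 at an unadjusted p under 0.05. Of 9 receptors of the members and 7 interferon-induced genes limma called 0, with 0 and 2 at an unadjusted p under 0.05, beside 9630 of 26380 genes. The part of any of these genes, or of the cells they mark, in the values of Cxcl1, Cxcl2, Ccl2, Ccl3, Ccl4 and Ccl7 was not tested.

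Ccl12 had its highest level at 1 week in 3 of 6 series of genotype and tissue. Among them was HDC-KO spleen, which had no complete control and only its 1 week value well above background. STAT6-KO bone marrow had no complete 1 week array, so it could not peak there. In that series Ccl12 was at -4.30 at 2 weeks and -4.38 at 4 weeks. Ccl12 was highest at 4 weeks in HDC-KO bone marrow (-3.51) and, in the remaining series, on the 4 week spleen array labelled STAT6-KO (-6.07). In WT it was highest at 1 week (-3.38 in spleen and -3.37 in bone marrow), against -6.47 and -5.18 in HDC-KO at 1 week and -6.93 in STAT6-KO spleen, where it was not well above background. The median level of the 7 interferon-induced genes on those WT arrays was 3.45 in spleen and 4.25 in bone marrow, against 2.67 and 2.34 on the WT arrays at 2 weeks, where Ccl12 was at -5.61 and -3.77. Other arrays were not set side by side in this way, among them HDC-KO bone marrow at 4 weeks, where Ccl12 was at -3.51. The part of the interferon-induced genes in the Ccl12 values was not tested.

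Members differed in which other genes their levels tracked over the 22 arrays. Among 14074 genes well above background on every array, Cxcl1 was most like Tnfaip3 (Pearson r = 0.940), Plk2 (0.924) and Ppp1r15a (0.902). Cxcl2 was most like Stk17b (0.781), Dusp1 (0.781) and Tmem167b (0.771). Ccl2 and Ccl3 shared their nearest gene, Zfp503 (0.846 and 0.892), followed by Gadd45b and Ier3 for Ccl2 (0.790 and 0.788) and by Dusp5 and Mrps27 for Ccl3 (0.890 and 0.867). Ccl7 was nearest to Zxdc (0.877), Mark4 (0.876) and Zswim4 (0.876), and Ccl12 to Zfp821 (0.849), Lgals9 (0.847) and Zfp975 (0.840). The nearest genes were Nadk (0.927), Eif1 (0.922) and Rhoa (0.919) for Ccl4, Tmem43 (0.942), Slc2a6 (0.924) and Map1lc3b (0.908) for Ccl6, Abca9 (0.786), Ext1 (0.762) and Gab1 (0.748) for Ccl9, and Zmynd15 (0.906), Tmem176a (0.865) and Itga4 (0.863) for Cxcl16. Within a tissue, over 11 arrays, r was 0.944 between Ccl2 and Ccl7 in spleen and 0.775 in bone marrow, 0.858 and 0.929 between Cxcl1 and Cxcl2, and 0.504 and 0.875 between Ccl7 and Ccl12. Between Ccl3 and Ccl4 it was 0.671 and 0.204. The nearest genes were ranked over both tissues together, between which 6 members were called, and not within a tissue. The arrays share genotypes, time points and scans, and signals not well above background are included, so these values are descriptions.

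Since Cxcl1 and Cxcl2 moved together in time, the 250 bases before the transcription start were read from a table of RefSeq promoter sequences (build GRCm38.p6), in which 6 of the 10 members were matched: Ccl3, Ccl6, Ccl9, Ccl12, Cxcl1 and Cxcl2. Ccl2, Ccl4, Ccl7 and Cxcl16 were not matched in that table. An NF-κB-like motif, GGG and TTCC with any 3 bases between them, on either strand, was present in 3 of the 6 (Ccl9, Cxcl1 and Cxcl2), and in 4.65% of 32851 such windows or 5.31% of 27025 genes. Its letters were chosen after the expression values were seen. Cxcl1 and Cxcl2 each held 3 matches, 2 of them overlapping, and Ccl9 held 1. An AP-1-like motif, TGANTCA, was present in Ccl9 alone among the 6 and in 6.75% of windows, and it did not overlap the NF-κB-like match. A match is a description of the letters only. The windows were chr5:90890995-90891244 on the plus strand for Cxcl1, chr5:90903649-90903898 on the plus strand for Cxcl2 and chr11:83578637-83578886 on the minus strand for Ccl9, all upstream of the gene, and the capitals below mark the NF-κB-like matches in the 3 windows that had any.
Cxcl1: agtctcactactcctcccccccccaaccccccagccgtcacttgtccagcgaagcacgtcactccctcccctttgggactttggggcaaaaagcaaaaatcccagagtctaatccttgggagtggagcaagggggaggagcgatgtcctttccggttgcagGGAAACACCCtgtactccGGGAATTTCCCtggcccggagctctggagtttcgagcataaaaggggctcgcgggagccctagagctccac
Cxcl2: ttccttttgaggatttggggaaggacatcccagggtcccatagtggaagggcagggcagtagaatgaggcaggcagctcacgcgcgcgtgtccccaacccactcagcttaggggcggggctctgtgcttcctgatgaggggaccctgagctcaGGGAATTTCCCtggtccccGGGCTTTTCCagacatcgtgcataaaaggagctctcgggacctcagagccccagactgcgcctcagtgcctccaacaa
Ccl9: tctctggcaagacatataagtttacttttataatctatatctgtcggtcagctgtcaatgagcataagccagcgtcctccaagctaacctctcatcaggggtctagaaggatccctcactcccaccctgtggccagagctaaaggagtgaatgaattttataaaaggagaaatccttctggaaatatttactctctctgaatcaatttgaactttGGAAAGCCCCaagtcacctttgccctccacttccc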

How the data were processed

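RNA from CD11b+ cells was labelled with Cy3 and hybridised to Agilent mouse 4x44K arrays. The authors' deposited files give each spot's processed intensity, which the scanner software had background-subtracted but not scaled between arrays. Control spots and 3055 outlier spots were left out, spots of a probe were averaged, and log2 values were set relative to each array's 75th percentile. Probes were named through RefSeq accessions where these matched, otherwise as on the array (27234 of 39429 probes had a symbol), and a gene was read from its probe with the highest mean. Genes well above background on at least 2 arrays of a fit were tested with limma 3.58.1 in R 4.3.3, and p-values were adjusted over all of them (Benjamini-Hochberg). Tissues were compared within pairs of genotype and time, genotypes and times in additive fits per tissue. In all, 13 comparisons were planned and 2 added after the values were seen. The scripts were tested on simulated data. The number of arrays limits the precision. Alternatives covered the background correction (normexp on median spot and background signals, offset 50), scaling, filter, choice of probe, blocks, the methods' t-test and leaving out arrays, genotypes and time points. All 10 chemokine genes were named, and of each further list up to 4 genes per comparison with the largest difference among those called. The members and lists were chosen with earlier results of these data known. P-values measure the spread between pooled arrays.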

Additional observations from a re-analysis of the deposited data

Results flagged for a closer look

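From control to MI 1 week, 5 members moved one way in both genotypes with complete spleen arrays (WT and STAT6-KO). They moved the other way in both with complete bone marrow arrays (WT and HDC-KO), which makes 2 pairs per tissue. The share of all genes that moved in opposite ways like this was not counted. The all-gene median difference at 1 week was -0.16 in spleen and 0.06 in bone marrow. In each tissue the WT 1 week array had the lowest share of spots well above background (70.4% in spleen and 71.3% in bone marrow). Among the 5 members the mean change was -0.39 in spleen and 0.57 in bone marrow for Ccl4, -0.32 and 0.58 for Ccl6, -0.28 and 0.31 for Cxcl1, and -0.99 and 0.31 for Cxcl2. Cxcl16 had the opposite signs, at 0.42 in spleen and -0.44 in bone marrow. For Ccl6 the fitted spleen difference at 1 week (-0.13) changed sign under 2 of the scalings. The difference was not tested for any of these genes, since the tissues hold different genotypes here. At 1 week in bone marrow, 2 of 5 platelet genes (Ppbp -2.62, Gp1ba -1.69) and 1 of 7 B cell genes (Pax5 -1.91) were called lower than in controls, each lost without WT or without HDC-KO (adjusted p from 0.316 to 0.474). Their part in the member values was not tested.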

How the results depend on the processing

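The 12 called differences of members (6 between tissues, 6 between 4 and 2 weeks in spleen) were recomputed under 230 alternatives in all. In 191 they kept direction and call, in 39 they kept direction but missed the threshold, and in 0 they reversed. The tissue count was 3 with the filter set to every array of the fit (Ccl4, Ccl6 and Cxcl16, with 7 members tested and Ccl7, Ccl12 and Cxcl1 not tested there) and 3 in STAT6-KO pairs alone (Ccl7, Ccl12 and Cxcl1). The exact p of Ccl6 was 0.0938 without HDC-KO. The 13 comparisons with 0 called members stayed at 0 in 190 of 194 alternatives. The other 4 were 1 week in spleen, where leaving out a genotype gave 0 to 2, 2 weeks in spleen with 1 member (Cxcl2) under the every-array filter and 1 without the 4 week spleen array labelled STAT6-KO, and 4 against 2 weeks in bone marrow with 1 (Cxcl2) under that filter. In spleen, 4 against 2 weeks gave 0 with normexp, 0 to 5 when a genotype was left out, and 3 without the 4 week spleen array labelled STAT6-KO. Over all genes and alternatives, 7503 to 18382 were called between tissues (15046 as reported), 0 to 6066 for 4 against 2 weeks in spleen (5187) and 0 to 78 in bone marrow (1), 4 to 963 for STAT6-KO (518) and 0 to 2696 for HDC-KO (742) in spleen, and 0 to 1501 (1248) and 3 to 998 (120) in bone marrow. At 1, 2 and 4 weeks against controls the ranges were 0 to 3351 (2087), 0 to 1011 (593) and 0 to 6 (0) in spleen and 0 to 457 (40), 0 and 0 to 543 (0) in bone marrow, and for the interactions 0 to 557 (341) with STAT6-KO and 0 to 1774 (491) with HDC-KO. Median scaling moved the split of higher and lower calls from 178 and 340 to 247 and 290 (STAT6-KO spleen), from 544 and 198 to 320 and 304 (HDC-KO spleen), from 1078 and 170 to 861 and 405 (STAT6-KO bone marrow), from 430 and 1657 to 1485 and 1039 (1 week, spleen), from 53 and 540 to 375 and 341 (2 weeks, spleen), from 24 and 317 to 50 and 209 (STAT6-KO interaction) and from 399 and 92 to 303 and 166 (HDC-KO interaction). Quantile normalization gave 176 and 200, 222 and 206, 1024 and 477, 524 and 751, 76 and 198, 29 and 111, and 205 and 125 in the same order. Of 130 results on other named genes, 2172 of 2650 alternatives kept the call, 476 missed the threshold and 2 reversed, both with normexp: Kdm5d between tissues (-0.0035) and Cx3cl1 at 1 week in spleen (0.31). The causes were not tested. Each member had 1 probe, so the choice of probe changed no member's value, and dropping the pair block changed no member count by over 1.5 times. Low signal over background limits Ccl7, Ccl12 and Cxcl1.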
